A study of Mus musculus with 6 samples.

Results

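The genes described here are 30 regulators of apoptosis and targets of the transcription factor p53, chosen by name out of 55335 genes in the files. They fall into 6 classes: 3 effectors that permeabilise mitochondria, 6 BH3-only genes, 5 pro-survival genes, 4 genes of caspases and the apoptosome, Trp53 itself, and 11 p53 targets. All 30 were found by symbol, and 29 passed the filter on low counts, Eda2r being the exception. RNA was sequenced from mouse retina after pull-down with an anti-HA antibody, and the labels call the result ganglion cell RNA, that is, RNA of the neurons that connect the eye with the brain. The naive group (3 libraries) came from C57BL/6 mice labelled wild type and 10 weeks old. The SOHU group (3 libraries) had the same strain, age and genotype, and had received silicone oil in the front chamber of the eye, a mouse model of raised eye pressure, with harvest 1 week later. The labels repeat the oil treatment on the naive libraries too, so the groups here follow the condition label and title. The labels name neither the protein that carries the HA tag nor the promoter that drives it, nor the animals behind each library. The p-values therefore rest on the scatter of these libraries, which may be technical in origin.

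Apoptosis through mitochondria is decided within the BCL2 family. Pro-survival proteins such as BCL-XL (Bcl2l1) and MCL1 hold the effectors BAX and BAK in check, BH3-only proteins relieve that restraint, and released cytochrome c then assembles with APAF1 to activate caspase 9. Caspase 8 acts instead downstream of death receptors such as FAS, and cuts BID to link both routes. p53, encoded by Trp53, raises transcription of several of these genes and of genes for cell cycle arrest, repair and antioxidant defence. In injured retinal ganglion cells, Bax-dependent death and activation of BH3-only genes are well known.

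Because p53 targets make up the largest class, the promoters of the members were searched for the p53 half-site consensus, a palindromic motif of 10 letters that therefore reads alike on both strands. RefSeq promoters (build GRCm38.p6, 250 bases before to 50 after the start of a transcript) matched 27 of the 30 members, with 38 starts. The consensus was present in 9 of these 38 promoters (23.7%) and in 2745 of all 32851 promoters (8.36%). Of the 8 members that hold it, 6 are in the p53 target class as grouped here, of which 9 genes matched. That class was chosen by name as p53 targets, so the higher share among members is no independent result. Only the promoter of Cdkn1a held a pair of half-sites with a spacer of at most 13 bases, an arrangement found in 24 of all promoters. The stretches before the start are printed 5′ to 3′ on the strand of the gene, with the consensus in capitals, so that the members that rose (Sesn1 and Gadd45a) can be read beside those that did not pass.
Cdkn1a, chr17:29090896-29090947, plus strand: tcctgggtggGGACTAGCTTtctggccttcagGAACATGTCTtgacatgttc
Gadd45a, chr6:67037428-67037457, minus strand: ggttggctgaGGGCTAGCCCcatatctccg
Sesn1, chr10:41887256-41887285, plus strand: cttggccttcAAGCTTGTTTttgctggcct
Mdm2, chr10:117710925-117710954, minus strand: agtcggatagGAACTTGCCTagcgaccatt
Ccng1, chr11:40755452-40755481, minus strand: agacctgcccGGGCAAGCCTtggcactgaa
Aen, chr7:78895927-78895956, plus strand: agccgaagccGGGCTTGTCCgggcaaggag
Bax, chr7:45467080-45467109, minus strand: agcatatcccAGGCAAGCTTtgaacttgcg
Trp53, chr11:69580274-69580303, plus strand: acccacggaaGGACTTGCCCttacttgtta
The Sesn1 stretch lies before the start of a shorter transcript and inside the gene as the files place it, and the Gadd45a and Aen stretches lie within the gene's bounds in the files, at or after its first base. Of the 8 members with the consensus, 2 rose (Sesn1 and Gadd45a), and of the 19 matched members without it, 3 rose (Casp8, Mcl1 and Phlda3). In the edgeR test given below, 8.02% of all genes tested rose. These numbers are too small to compare members with and without the consensus, and no test was run. A match is a string of letters and not a shown binding site, and many p53 sites lie outside this window.

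The libraries held 21691354 to 26824919 counted reads, and RNA of several retinal cell types was present in each. Of 19 ganglion cell markers, 17 fell, none rose, and the median log2 fold change was -1.05. Their summed share of the reads was 0.743, 0.463 and 0.542% in naive replicates 1 to 3 and 0.228, 0.226 and 0.327% in SOHU replicates 1 to 3. Of 15 Müller glia and astrocyte markers (14 tested), 10 rose and none fell, and their share was 1.37 to 1.91% in naive and 2.80 to 5.01% in SOHU, highest in SOHU replicate 1. Of 15 microglia and leukocyte markers (14 tested), 5 rose and none fell. Their share was 0.000876, 0.00421 and 0.00264% in naive and 0.0142, 0.0106 and 0.0058% in SOHU, lowest in naive replicate 1. No marker of these 3 lists was at 0 throughout either group. A change in a member can thus not be assigned to ganglion cells, and in such pull-downs fewer cells of a type and less RNA per cell cannot be told apart. The part of these markers in the changes given next was not tested.

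**Figure D1:**
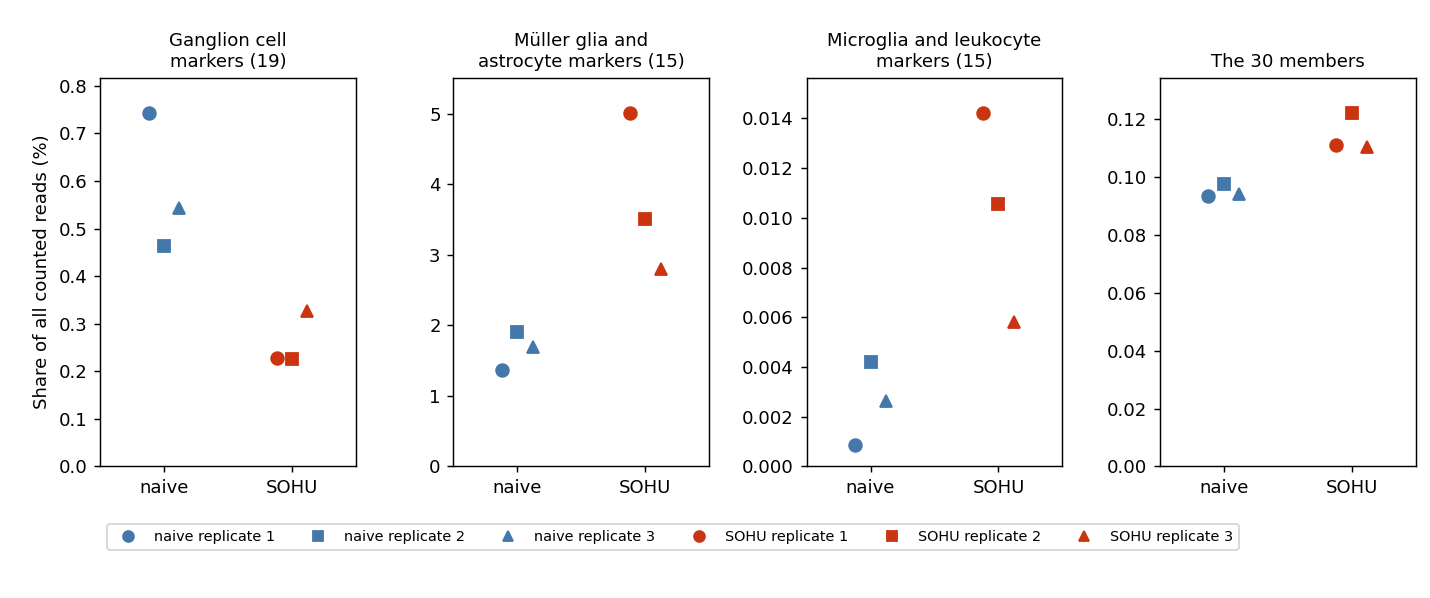
Share of all counted reads (%, y axis, a separate scale in each panel) taken by 3 marker lists and by the 30 members, for naive and SOHU libraries, with 1 point per library and the symbol showing the replicate. The ganglion cell markers lie lower and the glial, leukocyte and member shares higher in every SOHU library than in every naive library, with the members between 0.0932 and 0.0974% in naive and between 0.11 and 0.122% in SOHU.

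Among the 29 members tested, 5 rose in SOHU and none fell. The risers were Casp8, the pro-survival gene Mcl1, and the p53 targets Phlda3, Gadd45a and Sesn1, with increases of 1.65- to 2.75-fold. The threshold was 0.05 for the p of edgeR's quasi-likelihood test, adjusted after Benjamini and Hochberg over 17687 genes. In that test 8.02% of all genes were higher and 5.93% lower, so the 5 risers of 29 stand beside a background of 8.02%. At an unadjusted p under 0.05, edgeR placed 11 members higher (16.4% of all genes were) and 3 lower (Bok, Bcl2l1 and Zmat3; 14.8% of all genes were). Neither DESeq2 nor limma-voom called a member lower. The groups did not overlap in 12 members that were higher in SOHU (19.3% of all genes) and in 1 that was lower, Bcl2l1 (19.7% of all genes). The median log2 fold change was 0.30 for the members and 0.01 for all genes. Together the members took 0.0932 to 0.0974% of the reads in naive and 0.11 to 0.122% in SOHU.

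**Figure D2:**
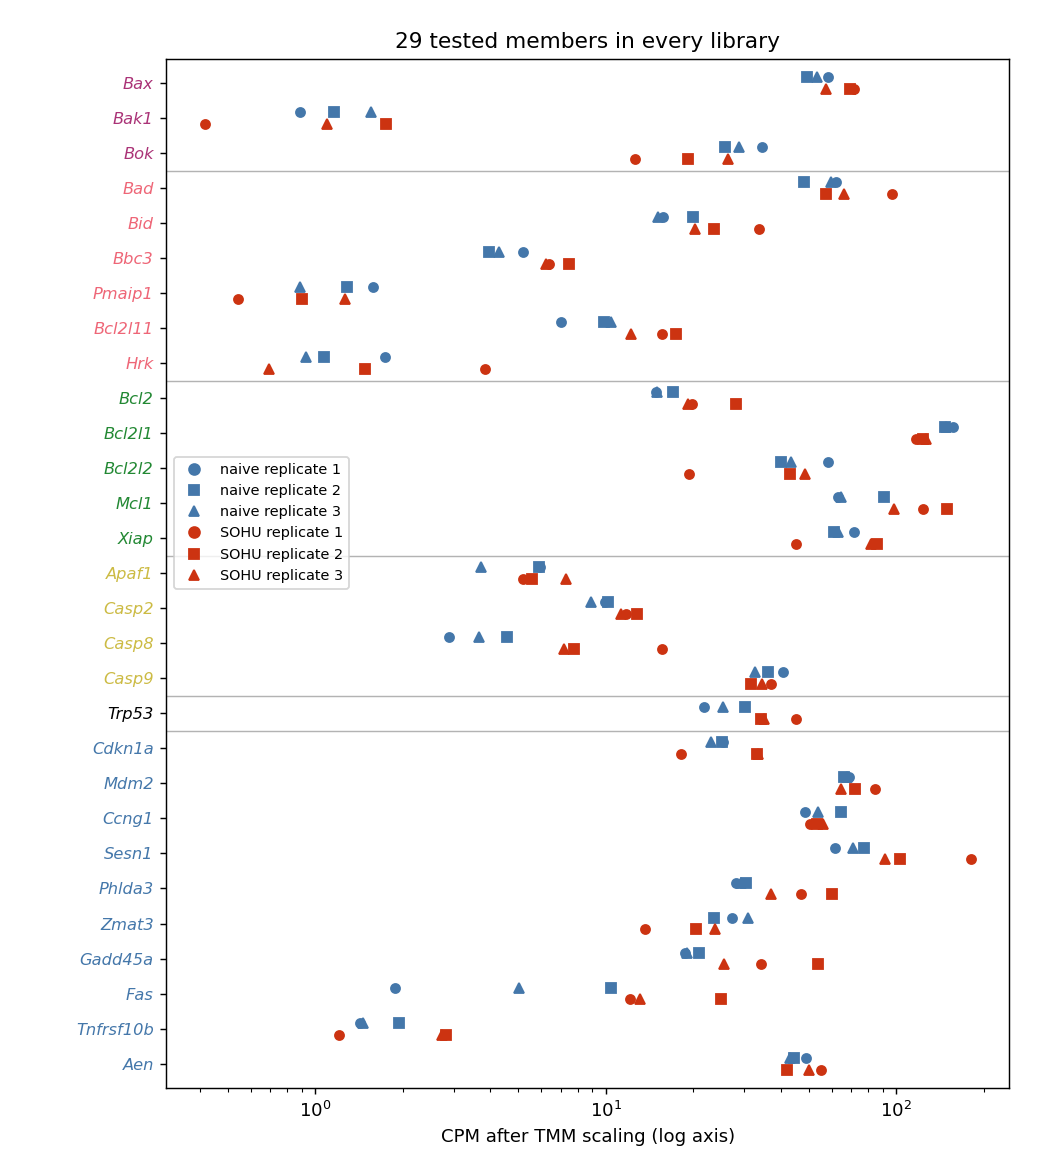
Level of each of the 29 tested members in every library, as CPM (a gene's reads relative to the TMM-adjusted size of its library, log x axis), grouped by class from effectors at the top to p53 targets at the bottom. Blue points are naive and red points SOHU, with the symbol showing the replicate. The 3 SOHU points of Casp8, Mcl1, Sesn1, Phlda3 and Gadd45a all lie to the right of the naive points, and those of Bcl2l1 to the left.

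Of the 3 effectors, whose products form pores in the outer mitochondrial membrane, none passed the test. Bax, the effector on which ganglion cell death is known to depend, had 58.5, 49.4 and 53.5 CPM in naive replicates 1 to 3 and 71.7, 69.2 and 57.3 CPM in SOHU replicates 1 to 3. The lowest SOHU library lay within the naive range. On the log2 scale the difference came to 0.30 with a 95% interval of -0.02 to 0.62 (SE 0.14), and edgeR's adjusted p was 0.19. Bok, a relative of BAX, had 34.5, 25.8 and 28.7 CPM in naive and 12.6, 19.2 and 26.5 CPM in SOHU. SOHU replicates 1 and 2 were below all naive libraries and replicate 3 was not, and the log2 fold change was -0.61 (SE 0.25, edgeR adjusted p = 0.132). With SOHU replicate 3 omitted, Bok passed (-0.89, adjusted p = 0.0235), in a fit where 3896 genes of the whole set passed, against 2467 with all libraries. In edgeR without a filter on low counts, where 3357 of 31942 genes passed, Bok passed as well (adjusted p = 0.0340). Bak1, the second classical effector, stood near the detection floor at 0.415 to 1.75 CPM over all libraries (10 to 39 reads). Per exon length, Bax was far above Bak1 in the naive libraries, with 34.1 against 0.498 RPKM (CPM per kilobase of exon), and Bok had 16.1 RPKM. Bak1 shares 437 exon bases with Ggnbp1 on the opposite strand, which adds to the uncertainty of so low a level.

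The 6 BH3-only genes, the sensors that start the mitochondrial route, included none that passed the test, and their log2 fold changes had a median of 0.59. The median was 0.24 without SOHU replicate 1, below those of the pro-survival genes (0.36), caspases and apoptosome (0.31) and p53 targets (0.46) in that fit. Bcl2l11, which encodes BIM, came closest. It had 7.01, 9.84 and 10.4 CPM in naive and 15.6, 17.4 and 12.2 CPM in SOHU, and the groups did not overlap. The log2 fold change was 0.73 (SE 0.22, edgeR adjusted p = 0.0555), and the threshold was passed without SOHU replicate 3 (adjusted p = 0.0246). With all libraries, Bcl2l11 passed in DESeq2 (adjusted p = 0.0183) and in edgeR without a filter on low counts (0.0309). Bid, the substrate of caspase 8, had 15.7, 19.9 and 15.2 CPM in naive and 33.8, 23.6 and 20.3 CPM in SOHU. Every SOHU library was above every naive library, SOHU replicate 1 by the most, and the log2 fold change was 0.61 (SE 0.22, edgeR adjusted p = 0.0847, and 0.0305 without SOHU replicate 3). Without SOHU replicate 1 it was 0.37 (adjusted p = 0.194). With all libraries, Bid passed in DESeq2 (adjusted p = 0.0480) and in edgeR without a filter on low counts (0.0442). More genes of the whole set passed without SOHU replicate 3 (3896) than in edgeR with all libraries and the filter (2467 of 17687). DESeq2 passed 3576 of 31940 genes, and edgeR without the filter 3357 of 31942. Bbc3, which encodes the p53-inducible protein PUMA, had 5.20, 3.95 and 4.29 CPM in naive and 6.36, 7.44 and 6.22 CPM in SOHU. These values did not overlap either, with a log2 fold change of 0.57 (SE 0.22, edgeR adjusted p = 0.11).

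The other BH3-only genes differed among themselves. Bad, whose product binds BCL-XL, had 48.3 to 62 CPM in naive and 57.2 to 96.8 CPM in SOHU, with overlapping groups (log2 fold change 0.37, edgeR adjusted p = 0.243). Per exon length it was the most abundant gene of the class in naive, at 22.1 RPKM, with Bid next at 4.77 RPKM. Hrk, a neuronal BH3-only gene, had 1.73, 1.07 and 0.929 CPM in naive and 3.82, 1.48 and 0.691 CPM in SOHU. One SOHU library stood above and another below all naive libraries, and without SOHU replicate 1 the log2 fold change turned from 0.68 to -0.21. Pmaip1, which encodes the p53 target NOXA, had 0.884 to 1.58 CPM in naive and 0.54 to 1.26 CPM in SOHU (13 to 41 reads per library, edgeR adjusted p = 0.505). Bad shares 524 exon bases with Gpr137 and Bid shares 628 with Bcl2l13, each on the opposite strand and at 65.7 and 176% of the member's level, so that the values of both are uncertain in that respect.

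Of the 5 pro-survival genes, Mcl1 rose and the others did not pass the test. Mcl1, whose short-lived product restrains BAK and BIM, had 63.0, 91.0 and 64.7 CPM in naive and 124, 150 and 98.6 CPM in SOHU. All SOHU libraries lay above all naive libraries. It rose 1.70-fold (log2 fold change 0.77, SE 0.20, 95% interval 0.33 to 1.21, edgeR adjusted p = 0.0329). Omitting a library raised the adjusted p above the threshold in 4 cases, to 0.153 (naive replicate 1 omitted), 0.139 (naive 3), 0.0561 (SOHU 1) and 0.107 (SOHU 2), and the direction was the same in each. Without naive replicate 1 or naive replicate 3 no gene of the whole set passed, so the adjusted p of those omissions says nothing about a single member. Only 336 genes passed without SOHU replicate 2 and 2017 without SOHU replicate 1, against 2467 with all libraries. Over all 6 omissions the log2 fold change of Mcl1 was 0.63 to 0.97. Bcl2l1, which encodes BCL-XL, had the smallest standard error of all tested members. Its libraries had 157, 147 and 149 CPM in naive and 117, 124 and 126 CPM in SOHU, so that every SOHU library was below every naive library. The difference was small, a log2 fold change of -0.30 (SE 0.12, 95% interval -0.56 to -0.04), and did not pass (edgeR adjusted p = 0.11).

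Bcl2, the founding member of the family, had 14.9, 17 and 15 CPM in naive and 19.9, 28.0 and 19.2 CPM in SOHU, without overlap (log2 fold change 0.51, SE 0.19, edgeR adjusted p = 0.0969). Bcl2l2, which encodes BCL-W, had 58.3, 40.3 and 43.5 CPM in naive and 19.3, 43.0 and 48.7 CPM in SOHU. Only SOHU replicate 1 was outside the naive range (log2 fold change -0.36, edgeR adjusted p = 0.457). Xiap, an inhibitor of caspases, had 61.2 to 71.5 CPM in naive and 45.4, 85.8 and 82.2 CPM in SOHU (log2 fold change 0.12, edgeR adjusted p = 0.743). SOHU replicate 1 was below and the other SOHU libraries above all naive libraries, and without SOHU replicate 1 the log2 fold change was 0.36 (adjusted p = 0.093). SOHU replicate 1 was also the library with the highest share of glial markers, 5.01%. It had the lowest shares of amacrine and horizontal cell markers (0.103%) and bipolar cell markers (0.0760%) of all libraries. Its low Bok, Bcl2l2 and Xiap levels stand beside these shares, and the part of the markers in them was not tested.

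Per exon length the order of the pro-survival genes differed between the groups. In naive, the mean levels were 32.9 RPKM for Bcl2l1, 21.3 for Mcl1, 10.6 for Bcl2l2, 6.89 for Xiap and 1.71 for Bcl2. In SOHU, Mcl1 stood first at 36.4 RPKM and Bcl2l1 second at 26.7 RPKM. The ratio of Mcl1 to Bcl2l1 within a library was 0.54, 0.832 and 0.585 in naive replicates 1 to 3 and 1.42, 1.63 and 1.05 in SOHU replicates 1 to 3. Mcl1 was thus below Bcl2l1 in each naive library and above it in each SOHU library. The ratio of Bax to Bcl2l1 was 1.09, 0.978 and 1.05 in naive and 1.78, 1.63 and 1.32 in SOHU, again without overlap. The ratio of Bax to Bcl2 did overlap, with 16.9 to 22.7 in naive and 14.4 to 21.0 in SOHU. These ratios were chosen after the values were seen and carry no test. Counts per gene also do not separate splice forms, which for Bcl2l1 and Mcl1 are known to differ in their effect on survival.

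Of the genes of caspases and the apoptosome, Casp8 alone passed the test. Casp8, the initiator caspase of death receptors, had 2.89, 4.55 and 3.67 CPM in naive and 15.7, 7.76 and 7.15 CPM in SOHU (75 to 106 and 173 to 377 reads). All SOHU libraries were above all naive libraries, with SOHU replicate 1 far above the rest. It rose 2.75-fold, the largest change among the members that passed (log2 fold change 1.46, SE 0.34, 95% interval 0.71 to 2.21, edgeR adjusted p = 0.0239). Omitting a naive library raised the adjusted p to 0.114, 0.0555 and 0.094 for replicates 1 to 3, and omitting SOHU 2 raised it to 0.0565. No gene at all passed without naive replicate 1 or 3, and 887 and 336 genes passed without naive 2 and SOHU 2, against 2467 with all libraries. With SOHU 1 omitted the log2 fold change was 1.00 and still passed (adjusted p = 0.0358). The order of Casp8 over the SOHU libraries was that of the glial and leukocyte shares (5.01, 3.51 and 2.80% and 0.0142, 0.0106 and 0.0058%), whose part in the rise was not tested.

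None of the other genes of this class passed. Casp9, the initiator caspase of the apoptosome, had 40.8, 36.2 and 32.8 CPM in naive and 36.9, 31.7 and 34.5 CPM in SOHU, with overlapping groups and a 95% interval of -0.41 to 0.24 on the log2 scale (edgeR adjusted p = 0.718). Apaf1, the scaffold of the apoptosome, had 3.71 to 5.93 CPM in naive and 5.19 to 7.32 CPM in SOHU (edgeR adjusted p = 0.61). Casp2, a caspase that can be activated by the p53 target PIDD1, had 9.97, 10.1 and 8.89 CPM in naive and 11.8, 12.8 and 11.3 CPM in SOHU. The Casp2 groups did not overlap, and the log2 fold change of 0.30 did not pass (edgeR adjusted p = 0.268). Per exon length, Casp8 stood at 0.127 to 0.226 times the level of Casp9 in naive libraries and at 0.762, 0.44 and 0.372 times in SOHU replicates 1 to 3.

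**Figure D3:**
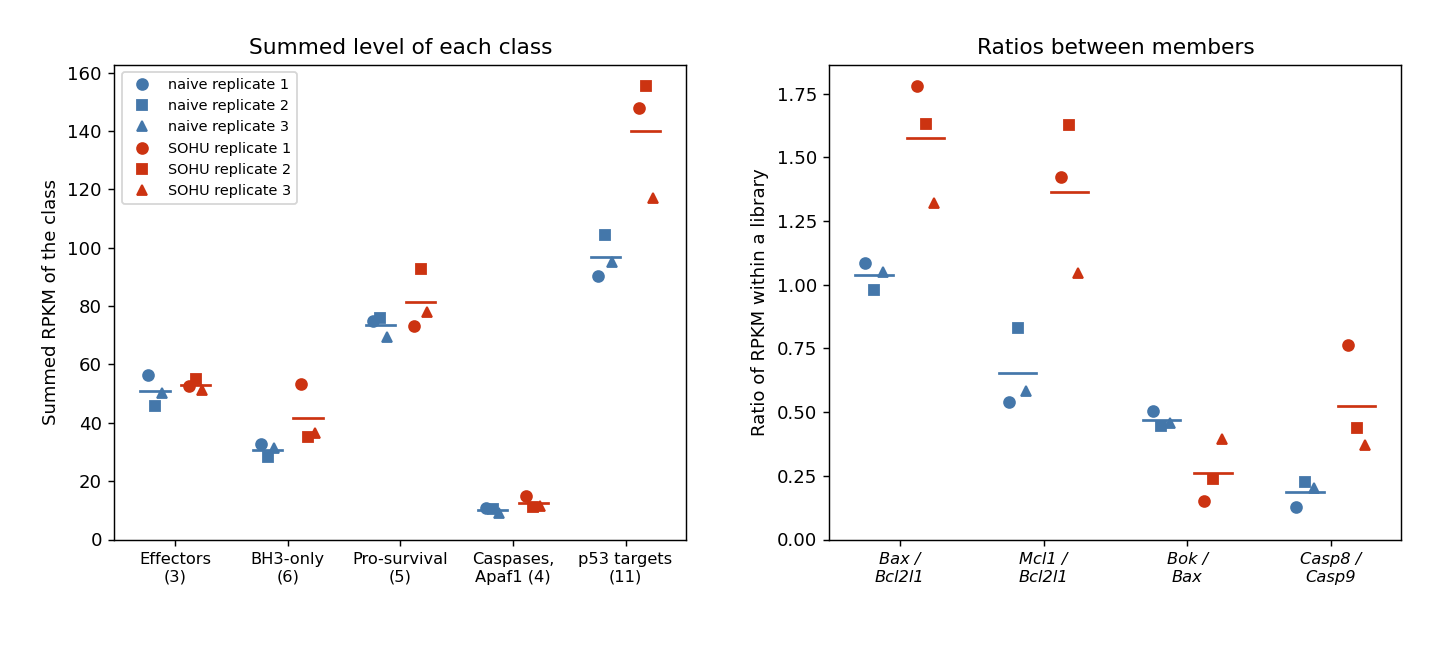
Left, summed RPKM of the members of each class in every library (number of genes in brackets). Right, ratios of the RPKM of 2 members within a library; points are libraries, and the bars are group means. The summed level of the p53 targets and the ratios of Bax and Mcl1 to Bcl2l1 lie higher in every SOHU library than in every naive library, while the effectors and the pro-survival genes overlap between the groups.

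Trp53 itself had 21.7, 30.2 and 25.3 CPM in naive and 45.1, 34.3 and 35.2 CPM in SOHU. The groups did not overlap, and the log2 fold change of 0.57 (SE 0.18, 95% interval 0.17 to 0.97) missed the threshold (edgeR adjusted p = 0.0605). With all libraries, Trp53 passed in DESeq2 (adjusted p = 0.0303) and in edgeR without a filter on low counts (0.0383). More genes of the whole set passed there too, 3576 of 31940 and 3357 of 31942, against 2467 of 17687 with the filter. Trp53 also passed in edgeR without SOHU replicate 3 (adjusted p = 0.0468), where more genes of the whole set passed (3896 against 2467). mRNA is only part of the picture, since p53 is regulated mainly through the stability of the protein.

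Of the 11 p53 targets, 10 were tested, 3 rose and none fell, with a median log2 fold change of 0.35. Gadd45a, a stress gene of growth arrest and DNA repair, had 18.8, 20.9 and 19 CPM in naive and 34.3, 53.8 and 25.5 CPM in SOHU. The naive libraries were close together and the SOHU libraries spread over all higher values. It rose 1.93-fold (log2 fold change 0.95, SE 0.25, edgeR adjusted p = 0.0345). Sesn1, which encodes the antioxidant and mTORC1-restraining protein sestrin 1, had 61.6, 77.3 and 70.8 CPM in naive and 180, 103 and 91.9 CPM in SOHU. It rose 1.79-fold (0.84, SE 0.24, edgeR adjusted p = 0.0453), and without SOHU replicate 1, the highest library, the log2 fold change was 0.47 (adjusted p = 0.0552). Phlda3, whose product opposes AKT at the membrane, had 28.0, 30.4 and 29.2 CPM in naive and 47.2, 60.3 and 37.1 CPM in SOHU. It rose 1.65-fold (0.72, SE 0.18, edgeR adjusted p = 0.0323), with no overlap between groups.

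With 1 library omitted at a time, the log2 fold changes of these 3 genes stayed positive, at 0.63 to 1.18 for Gadd45a, 0.47 to 1.04 for Sesn1 and 0.54 to 0.89 for Phlda3. The lowest value came without SOHU replicate 2 for Gadd45a and Phlda3 and without SOHU replicate 1 for Sesn1. Adjusted p-values are not comparable over these smaller fits, since no gene of the whole set passed without naive replicate 1 or naive replicate 3. Without naive replicate 2, SOHU replicate 1 and SOHU replicate 2, 887, 2017 and 336 genes passed, against 2467 with all libraries. Among the other omissions, Gadd45a no longer passed without naive replicate 2 (adjusted p = 0.0877), SOHU replicate 1 (0.0531) or SOHU replicate 2 (0.0873). Sesn1 did so in the same cases (0.0959, 0.0552 and 0.0769), and Phlda3 without naive replicate 2 (0.0869) or SOHU replicate 2 (0.0885). In limma-voom with all libraries, Gadd45a (adjusted p = 0.0508) and Sesn1 (0.058) missed the threshold as well. Gadd45a shares 337 exon bases with E230016M11Rik on the opposite strand, which stood at 31.8% of its level and had a log2 fold change of 0.43 (edgeR adjusted p = 0.254).

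Among the p53 targets that did not pass were Cdkn1a, Mdm2, Ccng1, Aen and Zmat3. Cdkn1a, which encodes the cell cycle inhibitor p21, had 25.3, 25.2 and 23.0 CPM in naive and 18.2, 33.0 and 33.6 CPM in SOHU. One SOHU library lay below the naive libraries and the others above, and the 95% interval of the log2 fold change was -0.30 to 0.71 (log2 fold change 0.20, edgeR adjusted p = 0.577). Without SOHU replicate 1 it was 0.44 (adjusted p = 0.065). Mdm2, the ubiquitin ligase that degrades p53, had 68.6, 66.0 and 67.5 CPM in naive and 84.5, 72.0 and 64.3 CPM in SOHU (95% interval -0.18 to 0.44, edgeR adjusted p = 0.571). For Ccng1, which encodes cyclin G1, the interval was -0.39 to 0.27, and for the nuclease gene Aen it was -0.21 to 0.44. The RNA-binding gene Zmat3 had 27.1, 23.5 and 31.0 CPM in naive and 13.6, 20.4 and 23.7 CPM in SOHU (log2 fold change -0.50, SE 0.22, edgeR adjusted p = 0.151). Only its SOHU replicate 3 reached into the naive range.

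The targets include 3 receptor genes, of which Fas and Tnfrsf10b did not pass and Eda2r was removed by the filter on low counts. Fas, the death receptor gene upstream of caspase 8, had 1.89, 10.4 and 5.04 CPM in naive and 12.1, 24.9 and 13.1 CPM in SOHU, with a log2 fold change of 1.54 (SE 0.55). The groups did not overlap, but naive libraries differed by several fold among themselves, and the test was not passed (edgeR adjusted p = 0.0966). It was passed without naive replicate 2 (log2 fold change 2.29, adjusted p = 0.0433) and in limma-voom (0.049). Without naive replicate 1 the log2 fold change was 1.1, and without SOHU replicate 2 it was 1.15. Naive replicate 1, the lowest in Fas, was also the lowest in leukocyte markers, at 0.000876% of reads, and naive replicate 2 was the highest naive library in both. The part of those cells in the Fas values was not tested. Tnfrsf10b, the mouse TRAIL receptor gene, had 1.42 to 1.93 CPM in naive and 1.2 to 2.83 CPM in SOHU (edgeR adjusted p = 0.425). Eda2r, a receptor gene of the ectodysplasin ligand, had 1, 0 and 0 reads in naive and 1, 1 and 18 reads in SOHU, so that 1 library held nearly all its reads, and no fold change is given.

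**Figure D4:**
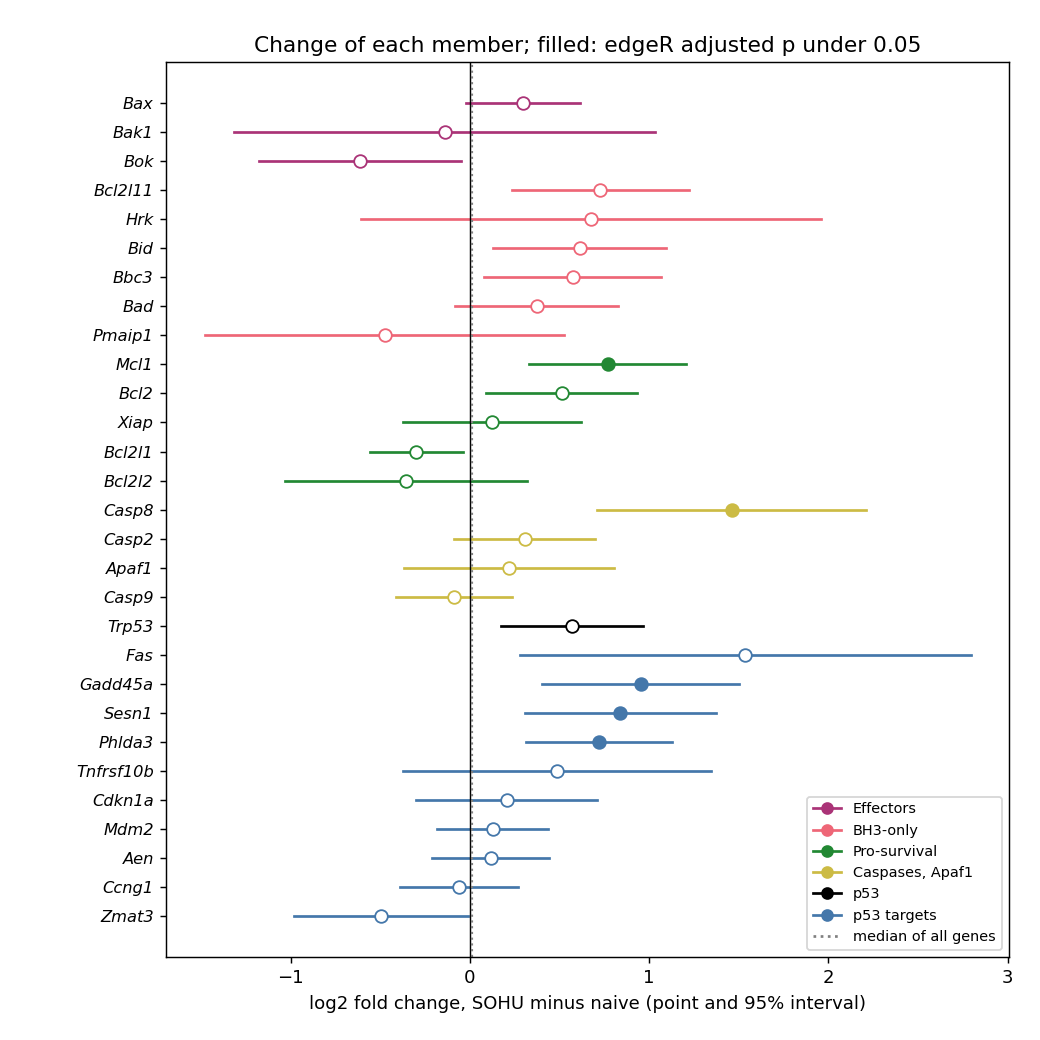
Log2 fold change of each tested member, SOHU minus naive, as point and 95% interval, coloured by class and ordered within it. Filled points passed an edgeR adjusted p under 0.05, and the dotted line is the median of all genes (0.01). The BH3-only genes other than Pmaip1 lie to the right of 0, the pro-survival genes lie on both sides, and Cdkn1a, Mdm2, Aen and Ccng1 lie near 0.

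By class, the median log2 fold changes were -0.14 for the effectors (0 of 3 passed), 0.59 for the BH3-only genes (0 of 6), 0.12 for the pro-survival genes (1 of 5 higher), 0.26 for the genes of caspases and the apoptosome (1 of 4 higher) and 0.35 for the p53 targets (3 of 10 tested higher). These stand beside 0.01 and a called share of 8.02% higher for all genes. The effector median rested on Bak1, a gene with few reads, and was 0.23 when SOHU 1 was omitted and -0.59 when SOHU 2 was. The pro-survival median was 0.36 when SOHU 1 was omitted.
Summed per exon length, the effectors had 45.8 to 56.2 RPKM in naive and 51.2 to 55.1 RPKM in SOHU, which overlap. The BH3-only genes had 32.9, 28.2 and 31.4 RPKM in naive and 53.1, 35.3 and 36.5 RPKM in SOHU, without overlap and with SOHU replicate 1 far above the rest. Most of this sum came from Bad and Bid (naive means 22.1 and 4.77 RPKM). The values of both are uncertain because of genes on the opposite strand, and the groups of Bad overlapped. The genes of caspases and the apoptosome had 9.24 to 10.9 RPKM in naive and 11.2 to 14.8 RPKM in SOHU, without overlap. The p53 targets had 90.4, 104 and 95.2 RPKM in naive and 148, 155 and 117 RPKM in SOHU, likewise without overlap. Most of that difference lay in Sesn1 (means 17.6 and 31.4 RPKM), Phlda3 (18.7 and 30.9), Gadd45a (11.1 and 21.5) and Fas (2.80 and 8.11). Of the 10 targets tested, 2 had a negative log2 fold change.
The summed effectors and BH3-only genes stood at 1.32, 1.06 and 1.30 times the summed Bcl2, Bcl2l1, Bcl2l2 and Mcl1 in naive, and at 1.54, 1.08 and 1.26 times in SOHU. On this summed scale the balance of pro-death and pro-survival mRNA overlapped between the groups.

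The 3 SOHU libraries did not carry the same pattern. SOHU replicate 1 was the highest SOHU library for 10 tested members, among them Casp8, Sesn1, Bid, Bad, Hrk and Trp53. SOHU replicate 2 was highest for 11, among them Mcl1, Phlda3, Gadd45a, Bcl2, Bcl2l11 and Fas. SOHU replicate 3 was highest for 8, among them Bok, Bcl2l1, Bcl2l2, Pmaip1 and Zmat3, and for none of the 5 members that rose. SOHU replicate 3 also kept the largest SOHU share of ganglion cell markers, 0.327%.

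Outside the 30 members, 84 further genes of the same pathways were listed, of which 73 were tested, 10 rose (8.02% of all genes did) and 2 fell (5.93%). Among other BCL2 family genes (6 of 12 tested), Bcl2l12 rose from 1.05 ± 0.24 to 3.26 ± 0.717 CPM (SD, n = 3 each) and Bnip3, a mitophagy receptor gene induced by hypoxia, fell from 415 ± 59.5 to 277 ± 38.2 CPM. Bcl2l12 shares exon bases with the far more abundant Irf3 on the opposite strand and is uncertain for that reason. Among other caspases, IAP genes and mitochondrial factors (16 of 17 tested), the effector caspase gene Casp6 alone passed, with 8.24, 9.11 and 9.29 CPM in naive and 32.5, 21.3 and 15.8 CPM in SOHU (2.62-fold, log2 fold change 1.39, SE 0.26, edgeR adjusted p = 0.0143).

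Genes of death receptor signalling beyond Fas included 2 that rose among 12 tested of 14. Tnfrsf1a, which encodes TNF receptor 1, had 21.7, 55.1 and 39.2 CPM in naive and 178, 120 and 101 CPM in SOHU, and rose 3.44-fold (log2 fold change 1.78, SE 0.33, edgeR adjusted p = 0.0144). Cflar, which encodes the caspase 8 inhibitor FLIP, rose from 36.6 ± 4.09 to 61.3 ± 4.91 CPM (SD, n = 3 each; 0.74, SE 0.14, edgeR adjusted p = 0.0155). The initiator Casp8 and its inhibitor were thus both higher in every SOHU library. Of 26 further genes listed as p53 targets, all tested, 6 rose and 1 fell. The risers with the smallest p were Dcxr (1.75-fold), the cell cycle inhibitor gene Cdkn1b (1.65-fold), the ribosomal protein paralogue Rps27l (1.83-fold) and Trp53inp1 (1.62-fold), and the kinase gene Plk2 fell 1.84-fold. Cdkn1b is not an established p53 target, and the count of 6 includes it. Of 15 regulators of p53, 13 were tested and none passed in edgeR. At an unadjusted p under 0.05, 1 of the 13 regulators was higher in that test (16.4% of all genes were), Hipk2, a kinase gene named after its values were seen. The median of the list was 0.06.

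With 1 library omitted at a time, the log2 fold change was 1.06 to 1.62 for Casp6, 0.66 to 0.84 for Cflar and 1.48 to 2.14 for Tnfrsf1a. Calls among the 84 genes numbered 4 higher and 0 lower without naive replicate 2, 0 and 0 without SOHU replicate 2, 7 and 2 without SOHU replicate 1, and 16 and 5 without SOHU replicate 3. Without naive replicate 1 or naive replicate 3 no gene of the whole set passed. Fewer genes of the whole set also passed without SOHU replicate 2 (336) and naive replicate 2 (887) than with all libraries (2467). Tnfrsf1a also missed the threshold when no filter on low counts was used (adjusted p = 0.101). The heat map of adjusted p gives these settings for 12 of the members.

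**Figure D5:**
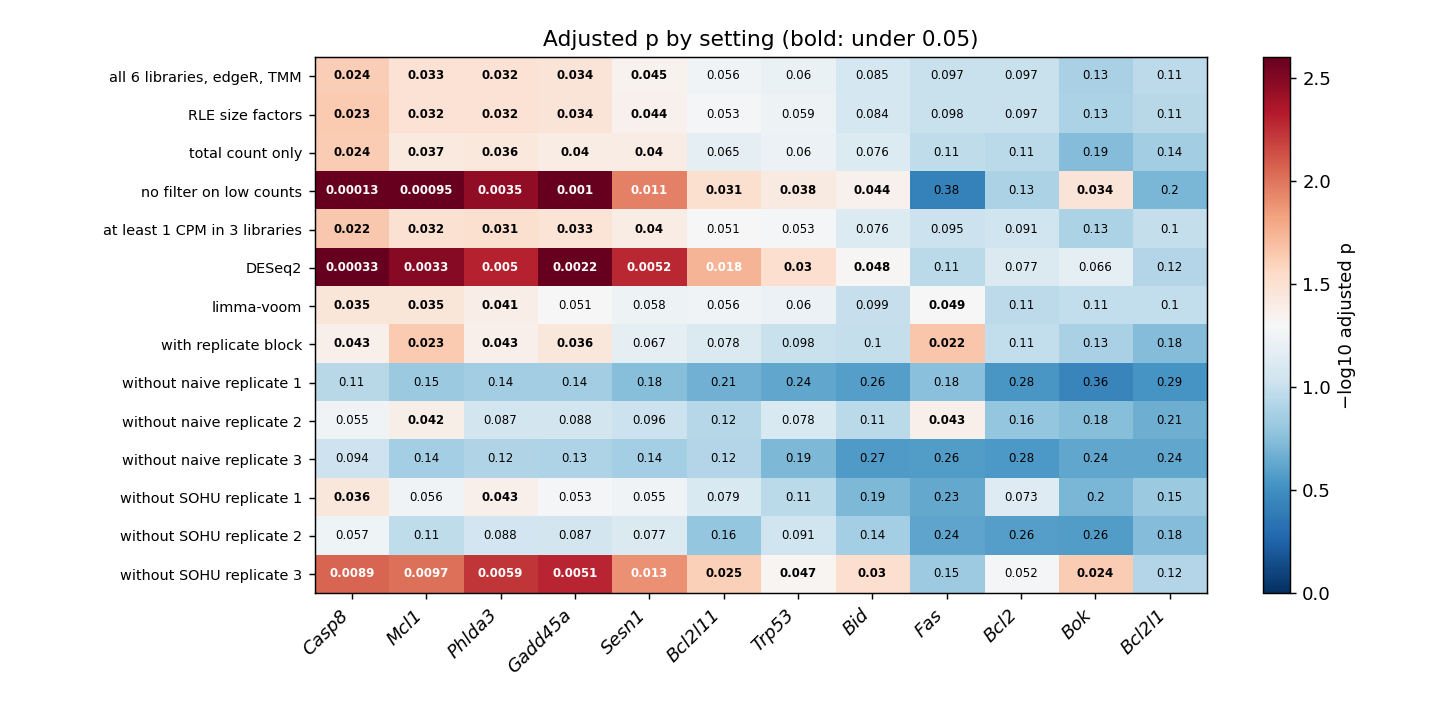
Heat map of the Benjamini-Hochberg adjusted p of 12 members (columns) under the main analysis and 13 alternatives (rows); red is a smaller and blue a larger adjusted p on a −log10 scale, and bold numbers are under 0.05. All 12 columns are at or above 0.05 without naive replicate 1 and without naive replicate 3, where no gene of the whole set passed, and Casp8, Mcl1, Phlda3, Gadd45a and Sesn1 reach their smallest values among the omissions without SOHU replicate 3.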

How the data were processed

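Raw read counts per gene were deposited by the authors for 6 libraries, made with featureCounts, HISAT2, HISAT, Trim Galore, bcl2fastq 2.17 and MultiQC on build mm10, per the submitters' processing notes. The strand setting and annotation release were not given in the sources used here, so the reads of genes that overlap are uncertain. The 6 single-library files equal the columns of the joint table. Symbols were matched by Ensembl identifier to GENCODE M21 (55154 of 55335 genes).

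Genes were filtered with filterByExpr (17687 kept, at least 99.8% of reads), scaled by TMM and tested with edgeR 4.0.16 (quasi-likelihood, robust, group only) in R 4.3.3, with Benjamini-Hochberg adjustment over all genes. The standard error is the log2 fold change over the square root of the F statistic. RPKM is CPM per kilobase of exon. Alternatives were RLE scaling, total count only, other filters, DESeq2 1.42.0, limma-voom 3.58.1, a replicate block and leaving out each library. Replicates of a group differed beyond counting noise (chi-square per degree of freedom 12.6 to 79.0). The fit was tested on simulated data. The members, lists and the rule for named genes (all members; of further lists, genes past the threshold, up to 4 per direction with the smallest p) were chosen with earlier results of these data known. Markers of rods, amacrine and horizontal, bipolar, vascular and lens cells were also listed, with 10, 10, 9, 7 and 8 genes tested. Of these, 0, 0, 1, 3 and 3 rose (8.02% of all genes did) and 0, 4, 1, 0 and 0 fell (5.93%). Among vascular markers, Tek did not pass (log2 fold change -0.21), and Pecam1 and Cdh5 had at most 13 and 2 reads in any library.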

Additional observations from a re-analysis of the deposited data

How the results depend on the processing

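RLE scaling, total count only and the filter of 1 CPM in 3 libraries each kept 5 members higher and 0 lower, limma-voom called 4 (Casp8, Mcl1, Phlda3 and Fas), and every class median kept its sign under these. Without a filter on low counts, 8 members were called higher and 1 lower (Bok). Of all 31942 genes tested in that fit, 1682 were higher and 1675 lower, and 5 further pathway genes were lower. The members added as higher were Bid, Bcl2l11 and Trp53. DESeq2 called the same 8 members higher. Of 31940 genes with a p-value there, 1900 were higher and 1676 lower, and 5 further pathway genes were lower. Further pathway genes called lower numbered 1 with total count only and 4 with the filter of 1 CPM in 3 libraries. Leaving out 1 library at a time gave 0 to 8 members higher and 0 to 1 lower, 0 to 2051 genes higher and 0 to 1845 lower among all genes, and 0 to 16 further pathway genes higher and 0 to 5 lower. In edgeR no gene passed without naive replicate 1 or naive replicate 3, where 8 and 7 members were higher at an unadjusted p under 0.05 and none lower (3919 and 4251 of all genes in either direction). Class medians over these omissions were -0.59 to 0.23 for effectors, 0.24 to 0.71 for BH3-only genes, -0.020 to 0.36 for pro-survival genes, 0.12 to 0.34 for caspases and the apoptosome and 0.27 to 0.46 for p53 targets. Members that changed sign were Ccng1 (0.071 without naive replicate 2, range -0.16 to 0.071), Bak1 (0.07 without naive replicate 3 and 0.24 without SOHU replicate 1, range -0.64 to 0.24), Hrk (-0.21 without SOHU replicate 1, range -0.21 to 1.1) and Xiap (-0.020 without SOHU replicate 2, range -0.020 to 0.36), none of them past the threshold. The causes were not tested. Over all members and alternatives, 333 values kept direction and side of the threshold, 25 no longer passed, 14 newly passed and 5 changed sign. With the replicate number as a block, 5 members were higher (Fas entered at adjusted p = 0.0217 and Sesn1 left at 0.0672), and all genes called numbered 2070 instead of 2467. The pairing is not given by the labels: deviations of same-numbered libraries correlated at 0.16, 0.25 and 0.004, and not every library correlated best with its own number. Depth limits Bak1, Pmaip1, Hrk, Tnfrsf10b and Eda2r, with at most 92 reads per library.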
